A study of Homo sapiens with 6 samples.

Results

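MAP kinase phosphatase and Sprouty genes, which encode feedback inhibitors of the MAP kinase cascades, were followed in INTS8-AID HEK293T cells after 48 h of auxin. They were taken by name as DUSP1, DUSP2, DUSP4, DUSP5, DUSP6, DUSP7, DUSP10, DUSP16, SPRY2 and SPRY4, and all 10 were among the 14538 genes of the authors' deposited table. HEK293T is a human embryonic kidney line, and both groups carried a homozygous miniAID tag on INTS8, a subunit of the Integrator complex that cleaves nascent RNA. The tag is a degron through which auxin directs destruction of the tagged protein. Auxin-treated cells received 100 µM auxin for 48 h (3 libraries), and the controls of the same genotype received none (3 libraries). No auxin-treated cells without the tag were analysed here, so effects of auxin and of the tagged protein cannot be told apart.

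The authors' deposited table gives a single comparison of the groups and no value per library, so depth and the spread between libraries are unknown here. Which group stands on top of its fold change is not named there, and auxin over no auxin was assumed, as is usual. Were the assumption wrong, all directions below would turn round. A further column of log2 expression equalled, within 0.0165 for the 12195 genes whose mean level reached 100, the log2 level per kilobase of the group on top of the fold change. It was used here as the auxin level per kilobase of transcript, and dividing it by the fold change gave the level without auxin. Levels are in the authors' normalised units. In RNA from whole cultures, fewer cells of a type and less RNA per cell cannot be told apart. Separate cultures are not named in the labels, and the p-values then cover just the spread of these libraries, which may be technical.

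Growth factor receptors switch on RAS, which activates a chain of RAF, MEK and ERK kinases, while stress activates the related JNK and p38 kinases. Active ERK induces genes whose proteins shut the cascade off again. MAP kinase phosphatases of the DUSP family remove the activating phosphates from the kinases, each with its own preference and place in the cell. Sprouty proteins act further upstream, between the receptor and RAF.

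With auxin 9 of the 10 genes rose and 0 fell, by the adjusted p-values (threshold 0.05) that the authors' deposited table lists. Of all 14479 tested genes 56.9% passed that threshold, 27.9% as higher and 29.0% as lower. By 2-fold or more 6 members rose, against 7.91% of tested genes, and the same 6 were at least 4-fold higher, against 2.65% of tested genes. These were DUSP5, SPRY4, DUSP6, DUSP4, DUSP10 and DUSP1. SPRY2 rose less than 2-fold, DUSP16 and DUSP7 rose slightly, and DUSP2 did not pass. The median log2 fold change of the 10 genes was 2.24, beside 0.00 over all tested genes. The mean level over both groups was at least 100 for all 10, but such a mean can rest on the auxin group alone, and SPRY4 (7.51 units per kilobase) and DUSP6 (13.8) were low without auxin.

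**Figure D1:**
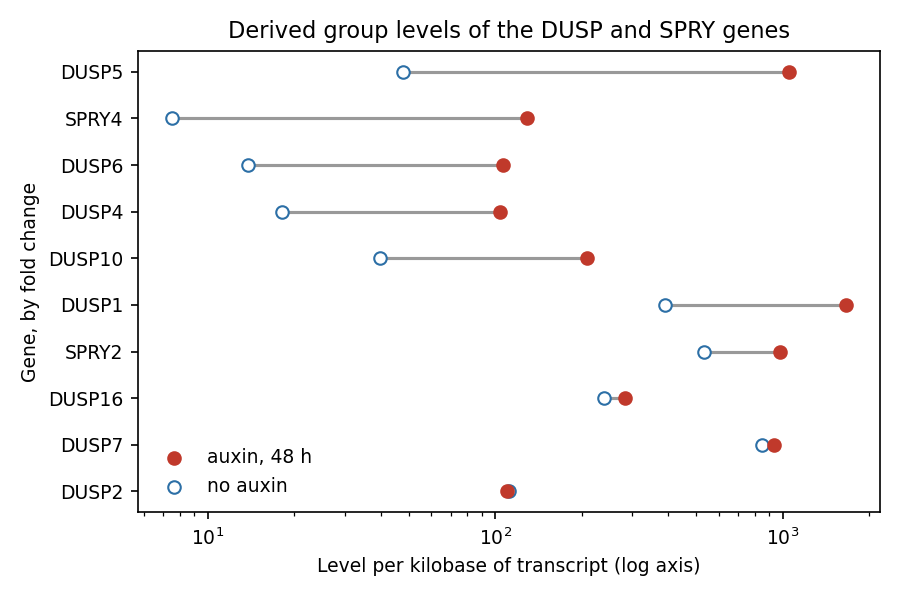
Derived level per kilobase of transcript (log axis) of each gene with auxin for 48 h (filled) and without auxin (open), each point being the value of 1 group of 3 libraries. DUSP5 stood at 1053 with auxin against 47.7 without, while the 2 points of DUSP2 nearly coincide.

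Among the inducible nuclear phosphatases DUSP1, DUSP2, DUSP4 and DUSP5, 3 rose and DUSP2 did not pass. DUSP5, a phosphatase selective for ERK, had 1053 units per kilobase with auxin and 47.7 without. That was a 22.1-fold rise in the authors' deposited table, with a derived 95% interval of 18.8 to 26.0. Its p-value is listed there as 0, so this interval is the widest that the table allows. DUSP1, which acts on p38, JNK and ERK, reached 1661 units per kilobase with auxin, against 390.2 without. It was the most abundant of the 10 per kilobase with auxin and the third most abundant without. The authors' deposited table gave DUSP1 a 4.26-fold rise (derived interval 3.77 to 4.81, adjusted p 1.19e-119).

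DUSP4, a nuclear phosphatase of ERK and JNK, stood at 104 units per kilobase with auxin and 18.1 without. Its rise was 5.72-fold in the authors' deposited table, with a derived interval of 4.80 to 6.83 and an adjusted p of 2.34e-81. DUSP2, best known from activated immune cells, had 110.1 units per kilobase with auxin and 111 without. The authors' deposited table gave DUSP2 a ratio of 0.988 (derived interval 0.761 to 1.28, adjusted p 0.951). The interval of DUSP2 is wide, and holds none of the folds of the other inducible nuclear members. In hg38, as the table gives it, DUSP5 lies on chromosome 10 from 110497907 to 110511533 (plus strand) and DUSP4 on chromosome 8 from 29333064 to 29350684 (minus strand).

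The cytoplasmic ERK phosphatases differed among themselves. DUSP6, a classical negative feedback gene of ERK in growth factor signalling, had 106 units per kilobase with auxin and 13.8 without, and lies on chromosome 12 from 89348369 to 89352405 (minus strand). Its rise was 7.68-fold in the authors' deposited table (derived interval 5.72 to 10.3, adjusted p 2.01e-40). DUSP7, its close relative, was already abundant, with 936 units per kilobase with auxin and 846 without. The authors' deposited table gave DUSP7 a 1.11-fold rise (derived interval 1.02 to 1.20, adjusted p 0.0332). DUSP9, the other gene of this class and no member of the set, had 1149 units per kilobase with auxin and 1197 without. At 0.960-fold (derived interval 0.870 to 1.06, adjusted p 0.508 in the authors' deposited table) DUSP9 did not pass. DUSP6 remained below DUSP7 and DUSP9 in level per kilobase with auxin. Its transcript length in the table is 1959 bases, against 4400 for its longest coding transcript in GENCODE 29, and a longer length would lower its level per kilobase in both groups alike.

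The phosphatases that prefer JNK and p38 also went separate ways. DUSP10 had 208 units per kilobase with auxin and 39.8 without. It rose 5.23-fold in the authors' deposited table (derived interval 4.41 to 6.20, adjusted p 3.51e-79). DUSP16 had 282 units per kilobase with auxin and 238 without, a 1.18-fold rise in the authors' deposited table (derived interval 1.07 to 1.31, adjusted p 2.61e-03). DUSP8, which is no member of the set, stood at 1.07-fold in the authors' deposited table and did not pass (adjusted p 0.671). DUSP10 lies on chromosome 1 from 221701424 to 221742089 and DUSP16 on chromosome 12 from 12473282 to 12562863, both on the minus strand. With auxin DUSP10 drew close to DUSP16, which had been well above it without auxin.

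**Figure D2:**
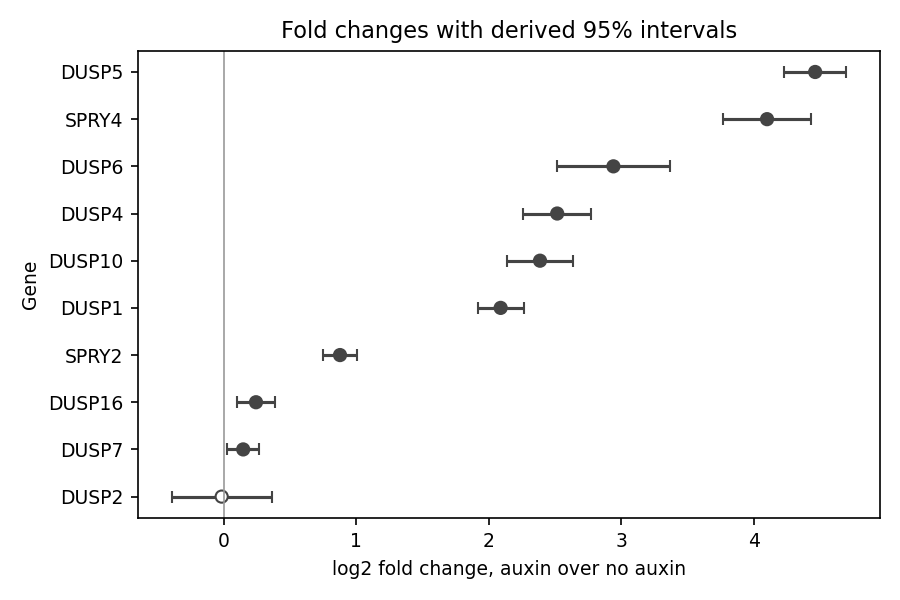
log2 fold change, auxin over no auxin, of each gene with the derived 95% interval; filled points passed an adjusted p of 0.05 and the open point did not. The values run from 4.47 for DUSP5 to -0.02 for DUSP2, and the interval of DUSP2 spans 0.

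Both Sprouty members rose, by very unlike amounts. SPRY4 had 129 units per kilobase with auxin and 7.51 without, the lowest level of the 10 without auxin. Its rise was 17.2-fold in the authors' deposited table (derived interval 13.6 to 21.6, adjusted p 5.29e-127). SPRY2 was the second most abundant of the 10 without auxin, with 981 units per kilobase with auxin and 534 without. The authors' deposited table gave SPRY2 a 1.84-fold rise (log2 fold change 0.88, derived standard error 0.0645, adjusted p 1.19e-40). SPRY2 stayed the larger of the pair, at 88.4% of their summed level per kilobase with auxin and 98.6% without.

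The other Sprouty genes and the SPREDs, membrane-bound relatives that also restrain RAF activation, had 4 of 5 genes higher and 1 lower. Their median log2 fold change was 0.87. Over all tested genes 27.9% were higher and 29.0% lower. SPRED2, SPRED3 and SPRED1 rose 1.85, 1.82 and 1.67-fold in the authors' deposited table, with adjusted p-values of 2.45e-39, 1.02e-05 and 2.91e-15. SPRY1 went the other way, with 346 units per kilobase with auxin and 403 without. SPRY1 fell to 0.857-fold (derived interval 0.776 to 0.947, adjusted p 5.32e-03) in the authors' deposited table. SPRY3, picked once the values were known, rose 6.63-fold in the authors' deposited table at a mean level of only 7, with a derived interval of 2.23 to 19.7.

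The members were also set in order of fold change. The derived 95% intervals of neighbours overlapped in 6 of the 9 pairs next to each other in that order. They did not overlap between SPRY4 and DUSP6, between DUSP1 and SPRY2, or between SPRY2 and DUSP16. DUSP5 and SPRY4 thus stood above the rest, DUSP6, DUSP4, DUSP10 and DUSP1 followed, and SPRY2 came before DUSP16, DUSP7 and DUSP2. Overlap of neighbours does not make DUSP6, DUSP4, DUSP10 and DUSP1 a single level. The intervals of DUSP6 (5.72 to 10.3) and DUSP1 (3.77 to 4.81) did not overlap. Among the same 12195 genes, DUSP5 and SPRY4 ranked 39 and 49 by fold change, DUSP6 115 and DUSP1 228. SPRY2 ranked 862, DUSP16 3042, DUSP7 3948 and DUSP2 5923.

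**Figure D3:**
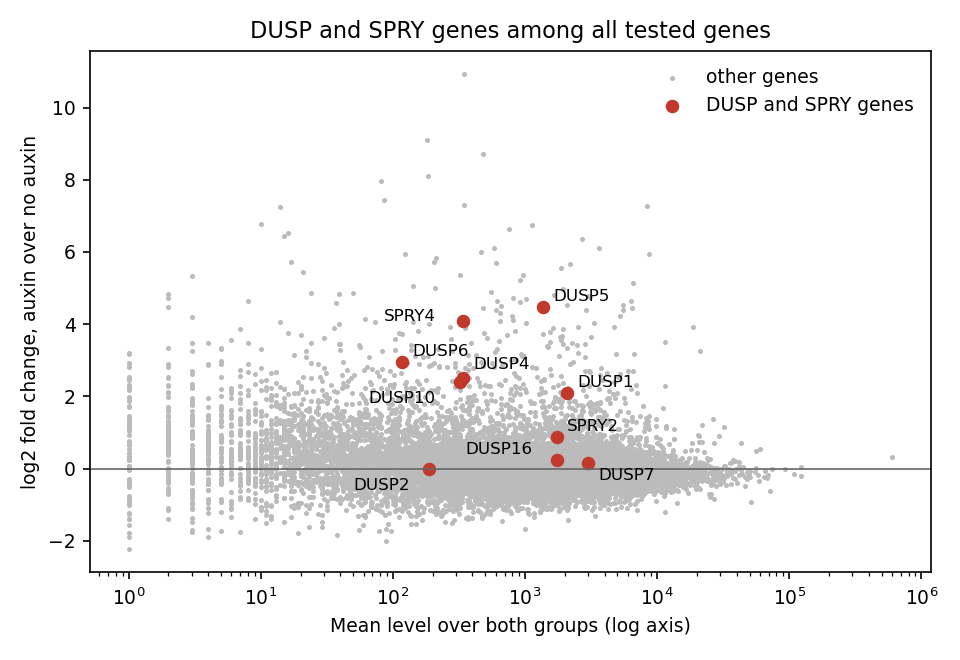
log2 fold change, auxin over no auxin, against the mean level over both groups (log axis) for all tested genes whose mean level reached 1 (grey) and the 10 DUSP and SPRY genes (red). DUSP5 and SPRY4 lie in the sparse upper cloud, at 4.47 and 4.10, and DUSP2, DUSP7 and DUSP16 lie in the dense band near 0.

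The make-up of MAP kinase phosphatase mRNA was unlike in the groups. The summed level of the 10 typical MAP kinase phosphatases, the 8 DUSP members with DUSP8 and DUSP9, was 5630.3 units per kilobase with auxin and 2921 without, a ratio of 1.93. The inducible nuclear genes made up 52.0% of the sum with auxin and 19.4% without. The cytoplasmic ERK phosphatases made up 38.9% with auxin and 70.4% without, although their own sum was nearly equal, at 2191 and 2057 units per kilobase with and without auxin. DUSP5 alone supplied 18.7% with auxin and 1.63% without, and DUSP1 29.5% with auxin and 13.4% without. The JNK and p38 class held 9.07% with auxin and 10.2% without, although its own sum was higher with auxin. That sum was 511 units per kilobase with auxin and 297 without, a ratio of 1.72. These sums have no replicate error, and they depend on the transcript lengths in the table.

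**Figure D4:**
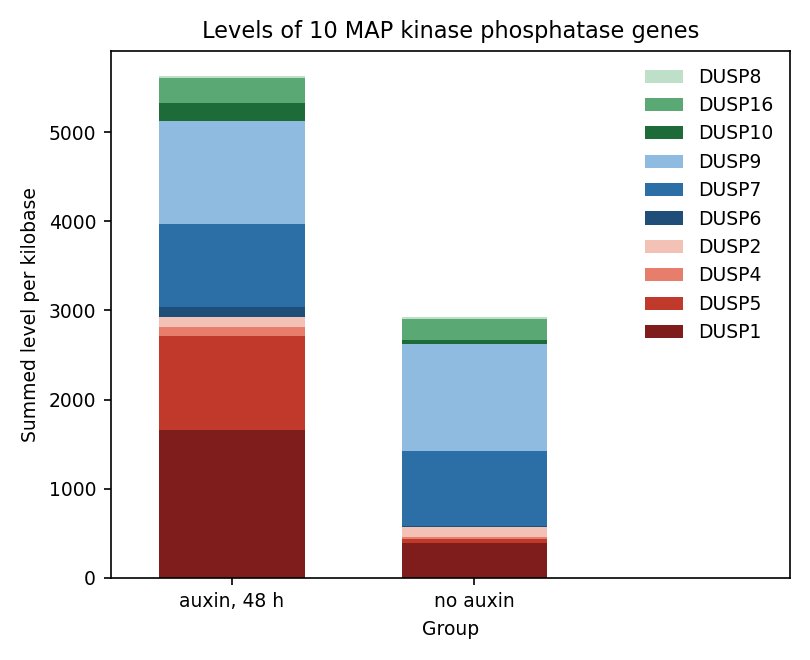
Summed level per kilobase of 10 MAP kinase phosphatase genes with auxin for 48 h (left) and without auxin (right), stacked by gene, with inducible nuclear genes in red, cytoplasmic ERK phosphatases in blue and JNK and p38 phosphatases in green. The bars reach 5630.3 with auxin and 2921 without, and DUSP1 and DUSP5 account for most of the difference.

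The promoters shown here are those of DUSP1 (4.26-fold higher), both Sprouty genes, and the member that did not pass. RefSeq windows from 250 bases before to 50 after the gene start, in GRCh38.p14, matched 8 of the 10 members, all but DUSP4 and DUSP5. The RefSeq start equals the gene start of the authors' table in 6 of the 8, and lies 774 bases from it in SPRY4 and 96 in DUSP6. The 250 bases before the start are printed in the direction of the gene, all from the minus strand, with the motifs searched for in capitals. They lie at chr5:172771196-172771445 for DUSP1, chr5:142324248-142324497 for SPRY4, chr13:80341127-80341376 for SPRY2 and chr2:96145441-96145690 for DUSP2.
DUSP1: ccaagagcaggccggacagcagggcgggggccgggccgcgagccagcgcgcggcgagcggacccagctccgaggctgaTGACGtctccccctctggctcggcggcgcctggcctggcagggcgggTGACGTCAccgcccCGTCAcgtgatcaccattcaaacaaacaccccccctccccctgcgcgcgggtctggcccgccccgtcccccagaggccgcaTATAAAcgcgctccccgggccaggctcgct
SPRY4: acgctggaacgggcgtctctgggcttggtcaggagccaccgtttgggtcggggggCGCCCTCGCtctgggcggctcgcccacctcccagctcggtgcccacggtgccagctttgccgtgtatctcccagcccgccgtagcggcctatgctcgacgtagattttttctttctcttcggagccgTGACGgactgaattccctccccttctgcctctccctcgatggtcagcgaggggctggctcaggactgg
SPRY2: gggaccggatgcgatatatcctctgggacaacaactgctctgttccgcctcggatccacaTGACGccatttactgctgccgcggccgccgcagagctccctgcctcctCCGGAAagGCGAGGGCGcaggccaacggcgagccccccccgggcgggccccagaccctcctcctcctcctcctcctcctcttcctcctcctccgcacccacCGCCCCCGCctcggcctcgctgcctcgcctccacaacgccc
DUSP2: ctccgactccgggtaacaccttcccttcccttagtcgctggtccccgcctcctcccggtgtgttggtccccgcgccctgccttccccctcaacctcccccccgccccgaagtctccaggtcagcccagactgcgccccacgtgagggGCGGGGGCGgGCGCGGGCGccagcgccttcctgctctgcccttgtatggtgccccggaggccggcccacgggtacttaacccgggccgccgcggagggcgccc

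The window of DUSP1, a gene long known to respond to cAMP, held the full cAMP response element TGACGTCA at -125 to -118 and a TATA box (TATAAA) at -30 to -25, counting back from the base before the start as -1. TGACGTCA was found in 1 of the 8 member windows and in 1.85% of 35116 RefSeq windows. Its core TGACG, which is part of every full element, stood in the windows of DUSP1, SPRY4 and SPRY2, or 3 of 8, and in 24.6% of all windows. Motifs were searched on both strands. The EGR site GCGNGGGCG was present in SPRY4, SPRY2, DUSP16 and DUSP2, or 4 of 8, against 9.43% of all windows. DUSP2, which did not pass, held the EGR site at -103 to -95 and at -93 to -85. An ETS core (CCGGAA) was found in SPRY2 alone, against 17.2% of windows. The AP-1 site TGANTCA was in 0 of 8 member windows and 7.71% of all, and the CArG box, the site of SRF, in 0 of 8 and 1.29%. These are matches of letters in a short window and not measured binding.

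The members were compact genes. In the longest coding transcript of GENCODE 29, 9 of the 10 had at most 4 exons, as did 20.7% of 11726 protein-coding genes whose mean level reached 100, and DUSP16 had 7. Spans were taken from the gene starts and ends of the authors' deposited table, not from GENCODE. The median span was 10.6 kb for the members, beside 28.4 kb for those protein-coding genes. Of the members 8 of 10 were shorter than 20 kb, as were 39.7% of those genes. Genes with at most 4 exons were called higher in 39.5% of cases and those with more exons in 25.2%. The shortest member, DUSP2 at 2.27 kb, did not pass, and the longest, DUSP16 at 89.6 kb, rose 1.18-fold in the authors' deposited table. DUSP10, at 40.7 kb, rose 5.23-fold in the authors' deposited table. The part of gene size in the members' values was not tested. The AUUUA pentamer of unstable mRNAs, counted as ATTTA, occurred 8 times in the 3′ untranslated region of SPRY4, 6 in DUSP4, 5 in DUSP16, 4 in DUSP1, 3 in DUSP10 and DUSP2, 2 in SPRY2, 1 in DUSP6 and 0 in DUSP5 and DUSP7. A count of at least 4 was reached by 4 of 10 members and by 40.4% of the protein-coding genes.

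Within 300 kb of the members the nearest listed gene on each side gave 13 neighbours of 8 members, and DUSP10 and SPRY2 had none. Of the 13 neighbours 3 rose, 4 fell and 6 did not pass, shares near those over all tested genes (27.9% higher and 29.0% lower). DUSP1 lay between ERGIC1 and NEURL1B, which the authors' deposited table put at 0.640-fold and 0.525-fold (both lower). DUSP5 had SMC3, a cohesin subunit, downstream at 0.912-fold and SMNDC1 upstream at 1.08-fold in the authors' deposited table (adjusted p 0.0296 and 0.299). The 1 neighbour that rose at least 2-fold was ADRA2B, an adrenergic receptor gene 26.6 kb downstream of DUSP2, at 5.09-fold in the authors' deposited table, beside 0.988 for DUSP2 itself. The distance rule and the neighbours named were chosen once the values were known. GENCODE 29 places a noncoding gene on the opposite strand of DUSP1, DUSP6, DUSP16 and SPRY4. The library kit was directional per the labels, but the use of strand in counting was not given in the sources used here.

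Of 12 further transcriptional targets of ERK, 10 rose and 2 fell, beside 27.9% higher and 29.0% lower over all tested genes. By 2-fold or more 9 rose, against 7.91% of tested genes, and the median log2 fold change was 1.86. This list was drawn up with earlier results of these data known, so its counts are a description and no independent test. ETV5, an ETS factor induced with SPRY and DUSP genes by FGF signals, rose 24.5-fold in the authors' deposited table. PHLDA1 rose 7.38-fold, the AP-1 subunit gene FOSL1 7.31-fold and the early response factor EGR1 4.75-fold in the authors' deposited table. The authors' deposited table put the cytokine gene LIF at 0.592-fold and MYC at 0.867-fold. Both fell, and both were picked for mention once their values were known.

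Among 18 genes of RAS, RAF, MEK and ERK, the kinase cascade under these inhibitors, 4 rose and 6 fell, 0 by 2-fold or more, with a median log2 fold change of -0.09. These shares are near those over all tested genes (27.9% higher and 29.0% lower). The RAF kinase ARAF fell to 0.521-fold, MAP2K2 (a MEK) to 0.729-fold and MAPK3 (an ERK) to 0.729-fold in the authors' deposited table. MAP2K1, SHOC2 and RRAS2, picked once the values were known, were among the genes that rose. Of 15 listed genes of the JNK, p38 and ERK5 kinase branches 1 rose and 8 fell, with a median of -0.16. Those counts stand beside the same shares of all tested genes, and they depend on the setting. After centring 2 rose and 5 fell, at 1.5-fold or more 1 rose and 2 fell, and at 2-fold or more 0 rose and 1 fell. MAP2K6, which activates p38, fell to 0.457-fold, MAPK12, a p38 kinase, fell to 0.638-fold, and MAP2K3, another activator of p38, rose 1.54-fold in the authors' deposited table.

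Other inhibitors of the pathway included genes that rose and genes that fell. In the lists given next the shares were near those over all tested genes (27.9% higher and 29.0% lower). Of 17 listed DUSP genes outside the set and their relatives, 5 rose, 4 fell and 8 did not pass, none by 2-fold, with a median of 0.09. DUSP18 and DUSP14 rose 1.51 and 1.48-fold and the slingshot phosphatase gene SSH3 fell to 0.660-fold in the authors' deposited table. Further genes that passed, picked once the values were known, were SSH2, DUSP12 and DUSP22 (higher) and STYXL1, SSH1 and DUSP3 (lower). Among 12 listed inhibitors of RAS and of receptors 3 rose and 4 fell, with a median of -0.01. ERRFI1, a feedback inhibitor of the EGF receptor, rose 3.52-fold, the ubiquitin ligase gene CBLB rose 1.28-fold and SPINT2 fell to 0.785-fold in the authors' deposited table. RASSF1 (higher) and RASA3, DAB2IP and LZTR1 (lower) were the rest that passed, picked once the values were known.

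Over all tested genes 27.9% were higher and 29.0% lower, and the counts of each list in this paragraph stand beside those shares. Of 10 listed adaptors and exchange factors 3 rose and 3 fell, with a median of -0.02. GAB1, a docking protein of receptor signalling, rose 1.73-fold, the RAS exchange factor SOS2 rose 1.28-fold and RASGRP1 fell to 0.565-fold in the authors' deposited table. SHC1 (higher) and CRKL and PTPN11 (lower) were picked once the values were known. Among 12 listed receptors 6 rose and 3 fell, with a median of 0.25. The nerve growth factor receptor gene NGFR rose 155-fold and FGFR1 rose 2.13-fold in the authors' deposited table. INSR, FGFR4 and IGF1R, picked once the values were known, fell. Of 13 listed CREB, SRF and ETS regulators 5 rose and 5 fell, with a median of -0.03. ETS2 and ATF1 rose 1.78 and 1.37-fold and the CREB coactivator gene CRTC1 fell to 0.701-fold in the authors' deposited table. Others that passed, picked once the values were known, were CREM, MRTFA and SRF (higher) and CREB1, MRTFB, ELK1 and CRTC3 (lower).

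**Figure D5:**
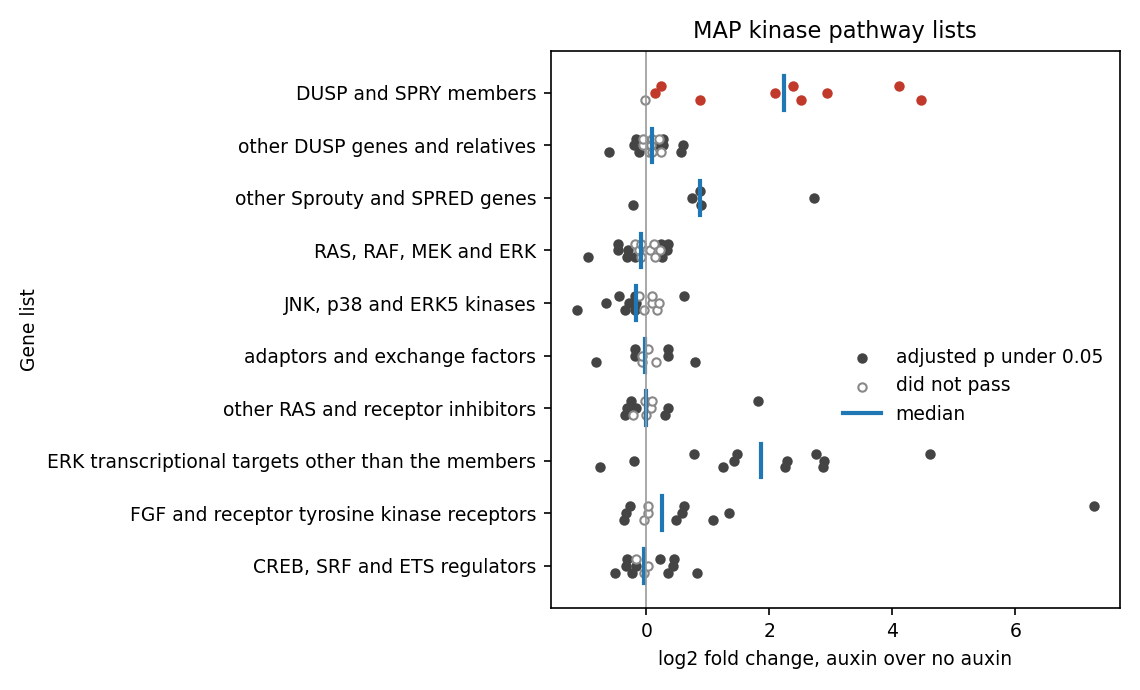
log2 fold change, auxin over no auxin, of each gene of the member set and of 9 pathway lists, with filled points past an adjusted p of 0.05, open points not past it, and a bar at each median. The medians of the members (2.24) and of the other ERK targets (1.86) lie apart from those of the kinases (-0.09 and -0.16) and adaptors (-0.02). Between them lie, among others, the medians of the other Sprouty and SPRED genes (0.87) and of the receptors (0.25). Members and lists were chosen with earlier results of these data known.

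INTS8 mRNA itself was 1.28-fold higher in the authors' deposited table (adjusted p 1.33e-07), and as the tag acts on the protein this is no check of the labels. Of 5 neuronal markers the 3 listed rose with auxin, where the authors' deposited table gave TUBB3 22.0, NEFM 10.8 and NEFL 2.83-fold, while the epithelial marker EPCAM, at 1.01-fold, did not pass. The summed level of the 3 neuronal markers was 9965 units per kilobase with auxin and 881 without, and their part in the members' values was not tested.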

How the data were processed

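RNA from 3 libraries of auxin-treated and 3 of untreated INTS8-AID cells was, per the labels' protocols, depleted of ribosomal RNA and made into directional libraries. The submitters' processing notes name STAR 2.7.3a, DESeq2 and the builds hg38 and dm6, and the roles of the builds are unknown here. The deposited table holds the authors' comparison: a normalised mean level rounded to whole numbers (used as a score), a fold change as a linear ratio, the same as log2, a p-value with its adjusted form, and a log2 expression value per kilobase, which was missing for 76 genes.

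The test was the authors' deposited adjusted p (DESeq2) at 0.05, as planned for a table without values per library. It equalled a Benjamini-Hochberg correction of the 14479 genes whose p was below 1, within a relative difference of 0.00777. Derived 95% intervals divide the log2 fold change by the normal quantile for its p to get a standard error, assuming a two-sided Wald test, which no source states. Depth per library is unknown. Named genes were the members, the 3 largest changes per pathway list past 0.05 whose mean level reached 20, and DUSP8, DUSP9, SPRY1, EGR1 and INTS8. Some genes that this rule takes are not reported here. One comparison gives no pattern over samples, so no genes were chosen for likeness. The members and lists were chosen with earlier results of these data known. Alternatives were a stricter adjusted p, fold limits, limits on mean level, centring, a Wald test against a fold of 1.5, other adjustments and a shorter promoter window. The Wald and adjustment steps were tested on simulated data. GENCODE 29 gave exons and transcripts and RefSeq the promoters. The work used matplotlib 3.10.9, pandas 2.3.3, scipy 1.17.1 and numpy 2.4.6 under Python 3.11.15.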

Additional observations from a re-analysis of the deposited data

How the results depend on the processing

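No paired analysis was possible because the table holds no values per library, and for the same reason no library could be left out. All 9 members that rose did so also after centring, over every listed gene, among protein-coding genes, and at a mean level of at least 10 or 100. The count was 8 at an adjusted p of 0.01, without DUSP7, 7 at a change of at least 1.5-fold and in the Wald test against a fold of 1.5, and 6 at 2-fold. Centring moved the median of the members to 2.27. Over all genes the 8245 calls became 3038 at 1.5-fold, 1343 at 2-fold and 1369 in the Wald test, and over the pathway lists the 77 calls became 29, 15 and 17, because those settings ask for larger changes. Of 18 counts of higher or lower genes per list, 17 moved by over 1.5 times under at least 1 setting. The shorter promoter window gave the same counts of members for every motif. Low members such as DUSP6 and DUSP2 have wider intervals, so small changes in them are less detectable.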
